A study of Mus musculus with 16 samples.

Results

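The chemokines and their receptors were followed through RNA sequencing of mouse myeloid sarcomas and leukaemic bone marrow. Members were all rows of the count table whose symbol begins with Ccl, Cxcl, Ccr or Cxcr followed directly by a digit, leaving out Cxcl12, Cxcr4 and Cxcr2, and they came to 51 of 23999 genes: 36 ligands and 15 receptors. Every mouse carried the NPM1cA mutation, a cytoplasmic form of nucleophosmin found in acute myeloid leukaemia. Whole bone marrow from 9 NPM1cA/SMC3+/- mice, in which 1 copy of the cohesin gene Smc3 is lost, was set beside myeloid sarcomas, solid masses of leukaemic cells outside the marrow, from 4 NPM1cA/SMC3+/- mice (6 libraries, since mice 948 and 2721 gave 2 tumours each) and from 1 NPM1cA mouse with wild type SMC3 (mouse 841, 1 library). The 16 libraries came from 12 mice, because mice 1267 and 2721 gave both tissues. The animal name 1268_1270 may stand for 2 pooled mice and was treated as 1 sample. The labels name neither the strain and age nor the promoter or Cre that drives the alleles.

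Libraries held between 9797201 and 39197660 counts, and the 2 tumours of a mouse were added up, which left 14 samples. Levels are CPM, read counts brought to a common library total after TMM scaling, which adjusts totals for a few dominant genes. Smc3 lay between 3.52 and 238 CPM in marrow and between 63.7 and 217 CPM in the SMC3+/- sarcomas. The SMC3 wild type tumour had 143 CPM, so the Smc3 level did not separate the genotypes. The lowest marrow values were those of 779 (3.52 CPM), 737 (5.45) and 782 (8.13), all short of long transcripts as described next. Every other marrow sample had 133 CPM or more. Marrow 737, 779 and 782 and tumour 1 of mouse 948 were short of long transcripts: genes with a transcript over 6 kb had a median log2 deviation of -2.37 to -1.23 in those 4 libraries against -0.946 to 0.627 in the other 12. The 6 pan-leukocyte markers summed to 4734 to 9012 CPM in marrow and to 4169 to 7100 CPM in sarcomas 1267, 2721 and 948, as the tissue labels imply. Sarcoma 1268_1270 stood apart, with a leukocyte sum of 395.1 CPM, a primitive and granulocytic myeloid sum of 929.2 CPM against 18590 or more in every other sample, and an adipocyte marker sum of 40140 CPM against 553.9 or less. Tumours were dissected and placed directly in Trizol, whereas marrow was crushed out, filtered and freed of red cells, so tissue and handling cannot be told apart.

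Chemokines are small secreted proteins that steer leukocytes along concentration gradients through G protein-coupled receptors. The CC ligands act mostly on monocytes, macrophages, eosinophils and lymphocytes through the CCR receptors, and the CXC ligands with an ELR motif draw neutrophils through CXCR1 and CXCR2. In marrow, CCR2 and its ligand CCL2 govern the exit of monocytes, while in tissues resident macrophages and fibroblasts are well known sources of monocyte-attracting ligands.

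To show the regulatory sequence in front of the ligands on which the results turn, RefSeq promoter windows (build GRCm38.p6) of 250 bases before the start were searched for 35 of the 51 members. They are printed 5′ to 3′ on the coding strand, stopping before any earlier GENCODE start. The first 4 genes were higher in sarcoma; the last 3 are neighbouring neutrophil-attracting ligands that were high together in 1 tumour. Capitals mark matches to any of 4 patterns searched on both strands: the NF-kB consensus, the interferon-gamma activated site TTCNNNGAA, the interferon response element GAAANNGAAA and the AP-1 site TGANTCA.
Cxcl13 (chr5:95956689-95956938, plus strand): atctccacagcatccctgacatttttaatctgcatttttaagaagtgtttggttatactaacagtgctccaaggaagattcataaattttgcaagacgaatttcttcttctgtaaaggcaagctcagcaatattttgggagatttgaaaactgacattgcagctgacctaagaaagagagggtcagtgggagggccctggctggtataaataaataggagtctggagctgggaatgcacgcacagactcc
Ccl8 (chr11:82114935-82115184, plus strand): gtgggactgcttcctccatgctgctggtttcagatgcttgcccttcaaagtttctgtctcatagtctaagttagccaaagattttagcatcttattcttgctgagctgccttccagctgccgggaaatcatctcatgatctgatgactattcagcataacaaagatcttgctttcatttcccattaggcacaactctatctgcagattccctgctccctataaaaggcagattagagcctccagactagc
Ccl12 (chr11:82101595-82101844, plus strand): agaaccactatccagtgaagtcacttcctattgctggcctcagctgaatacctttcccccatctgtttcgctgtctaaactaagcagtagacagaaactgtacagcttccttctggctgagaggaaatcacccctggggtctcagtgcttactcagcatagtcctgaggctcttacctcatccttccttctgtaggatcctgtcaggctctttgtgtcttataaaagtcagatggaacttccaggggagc
Cxcl14 (chr13:56296552-56296801, minus strand): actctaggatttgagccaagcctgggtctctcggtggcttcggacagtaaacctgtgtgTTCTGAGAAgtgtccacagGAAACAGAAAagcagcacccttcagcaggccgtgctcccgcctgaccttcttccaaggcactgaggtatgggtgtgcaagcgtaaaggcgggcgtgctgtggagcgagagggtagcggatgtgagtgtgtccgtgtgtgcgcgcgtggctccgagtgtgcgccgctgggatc
Cxcl1 (chr5:90890995-90891240, plus strand): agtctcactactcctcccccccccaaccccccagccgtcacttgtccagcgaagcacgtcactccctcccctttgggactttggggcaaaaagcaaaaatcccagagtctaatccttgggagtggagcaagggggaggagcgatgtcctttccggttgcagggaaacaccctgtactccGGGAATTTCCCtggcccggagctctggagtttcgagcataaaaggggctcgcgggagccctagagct
Cxcl2 (chr5:90903649-90903870, plus strand): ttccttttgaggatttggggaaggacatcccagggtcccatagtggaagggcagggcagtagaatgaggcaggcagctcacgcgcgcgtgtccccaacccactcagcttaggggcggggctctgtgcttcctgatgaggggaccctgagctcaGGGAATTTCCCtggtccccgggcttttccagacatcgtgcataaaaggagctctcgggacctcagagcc
Cxcl3 (chr5:90785851-90786100, plus strand): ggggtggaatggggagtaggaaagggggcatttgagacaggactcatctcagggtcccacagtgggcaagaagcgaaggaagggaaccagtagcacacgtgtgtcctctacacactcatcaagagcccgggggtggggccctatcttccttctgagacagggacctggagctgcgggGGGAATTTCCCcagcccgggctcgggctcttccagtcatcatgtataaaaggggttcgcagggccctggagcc
Windows of Cxcl1, Cxcl2 and Cxcl3 each held the NF-kB consensus, matched on both strands in overlapping positions that begin 71, 97 and 73 bases before the start. Cxcl14 held the TTCNNNGAA pattern 191 bases and the GAAANNGAAA pattern 172 bases before its start. None of the 4 patterns was in the windows of Cxcl13, Ccl8 and Ccl12, which says only that these letters are not there. The NF-kB consensus was in the windows of 10 of 35 members (28.6%) and of 7.25% of all 32851 promoters in the table. For TTCNNNGAA the shares were 4 of 35 members (11.4%) and 7.02% of promoters, for GAAANNGAAA 3 of 35 (8.57%) and 2.98%, and for TGANTCA 6 of 35 (17.1%) and 6.75%. A match is a description of the sequence, not an occupied site.

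Few members carried most of the reads. Ccl6 and Ccl9, macrophage and myeloid-cell ligands of CCR1, took between 72.4% and 98.3% of ligand CPM in the 9 marrow samples and between 47.0% and 90.7% in the 4 SMC3+/- sarcomas, with the lowest share in sarcoma 1268_1270. Among member receptors, Ccr1 and Ccr2, receptors of monocytes and other myeloid cells, took between 82.3% and 97.0% of CPM in marrow. In those sarcomas their share was between 71.3% and 96.2%. This total leaves out Cxcr4 and Cxcr2, and Cxcr4 alone had a median of 506.2 CPM in marrow. In all, 11 members had a count in every marrow sample, 32 in each of the 4 SMC3+/- sarcomas, and 7 members, all ligands, had 0 counts in all 9 marrow samples. Ccl1 and Ccl21a had 0 counts in all 14 samples. Ccl21a, Ccl21b and Ccl21c, and likewise Ccl27a and Ccl27b, are near-identical copies whose counts are uncertain.

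**Figure D1:**
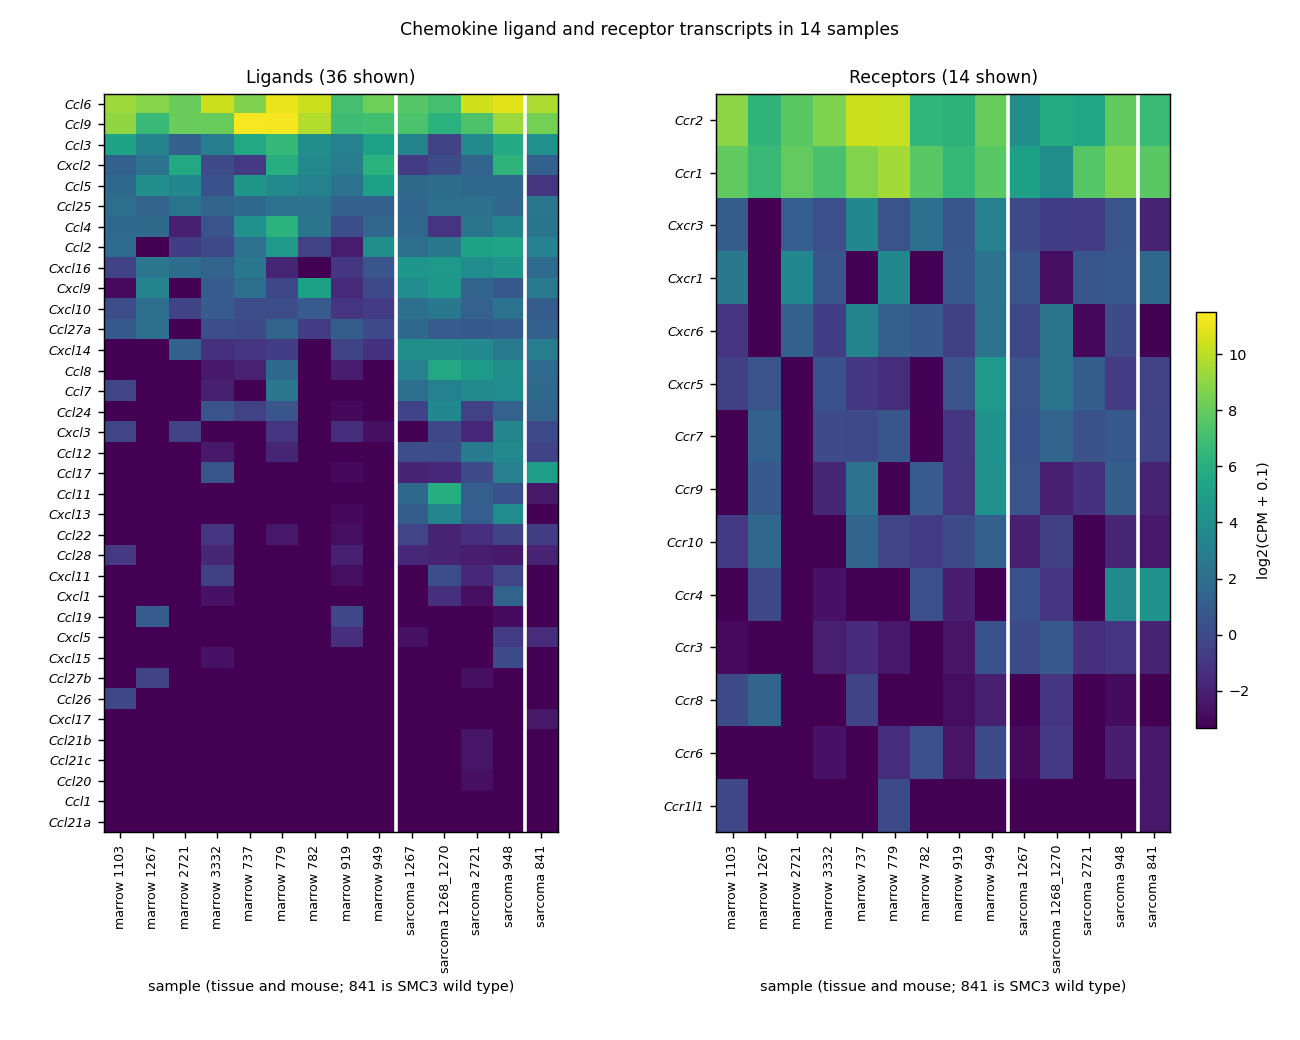
Level of the 36 ligands (left) and 14 of the 15 receptors (right) in each of 14 samples, as log2(CPM + 0.1), with white lines between SMC3+/- marrow, SMC3+/- sarcoma and the SMC3 wild type sarcoma of mouse 841. Ccl6, Ccl9, Ccr1 and Ccr2 are bright throughout. Cxcl13, Ccl11, Ccl12 and Ccl8 are dark in nearly all marrow samples. In each SMC3+/- sarcoma they are brighter than in marrow but below Ccl6, some in the lower part of the scale.

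The comparison of tissues within SMC3+/- mice tested 14730 genes, of which 662 (4.49%) were higher and 8 (0.0543%) lower in sarcoma (edgeR quasi-likelihood test, adjusted p under 0.05). Among the 31 members tested, 5 ligands rose and 0 members fell, with 10 higher and 2 lower at an unadjusted p under 0.05. DESeq2, which fitted 48 members, called 6 higher, among them Ccl17 from outside the 31 (6.63, adjusted p = 0.00161), and 1 lower, Ccl5. limma-voom called 7 higher and 0 lower among the 31. Over all genes DESeq2 called 774 higher and 101 lower of 19679, and limma-voom 876 higher and 20 lower of 14730. The groups did not overlap for 6 members, all higher in sarcoma, against 672 (4.56%) of all genes tested, while 0 members and 19 genes (0.129%) were lower without overlap. The median log2 difference was 1.69 over the 20 ligands tested, also with Ccl11 at its lower bound, -0.88 over the 11 receptors tested and 0.07 over all genes tested. These summaries carry a selection: 9 of the 31 members did not meet the count filter on marrow alone. Of these, 7, with all 5 called members among them, met it because all 4 sarcomas were over the count minimum, which selects for higher levels there, and Ccr4 and Cxcl3 met it through both tissues. Another 16 ligands and 4 receptors did not meet it. Among the 22 that met it on marrow alone, edgeR called 0, with Cxcl16 higher and Ccl5 and Ccr2 lower at an unadjusted p under 0.05, DESeq2 called 2 and limma-voom 1.

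**Figure D2:**
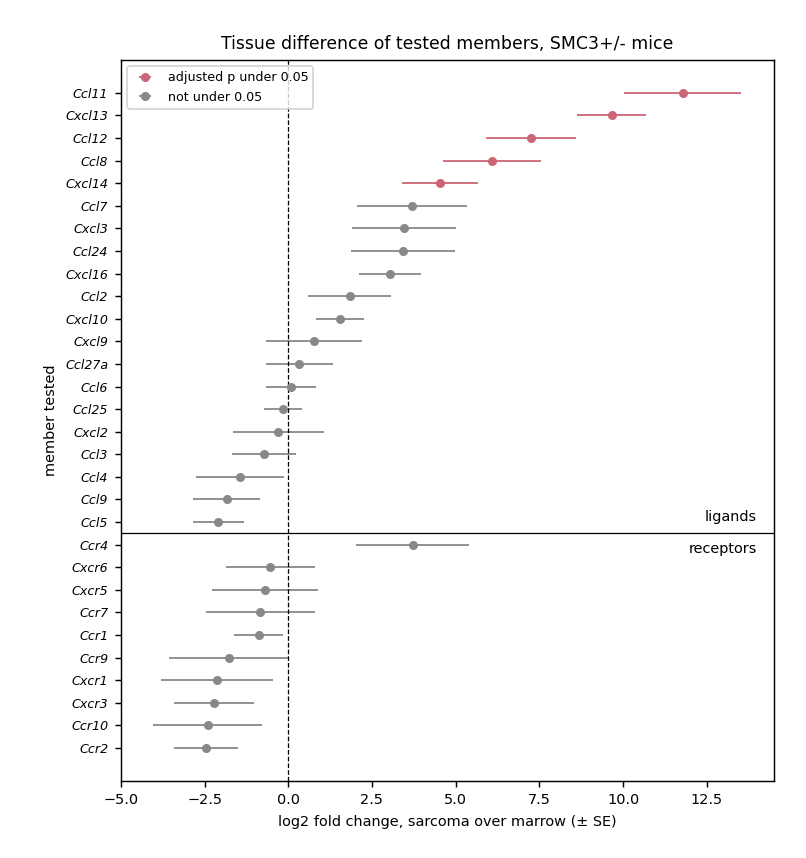
Log2 fold change of sarcoma over marrow for 30 of the 31 members tested, with 1 SE on either side, ligands above the line and receptors below. The 5 ligands past the threshold lie furthest right; Ccl11 had 0 marrow counts, so its plotted value depends on the fit, and of the receptors drawn only Ccr4 lies right of 0.

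Mouse as a block over the 13 samples, which rests on mice 1267 and 2721, called 0 members higher and 1 lower (Cxcl2). Over all 14730 genes tested in that fit, 107 were higher and 23 lower. In mice 1267 and 2721 alone Ccl2 and Ccl8 were called higher and Ccr2 and Cxcl2 lower. There 81 of 14397 genes were higher and 33 lower. Without sarcoma 1268_1270 the called members were 2, Cxcl13 and Ccl12, and without marrow 3332 or marrow 919 they were 3, Cxcl13, Ccl12 and Ccl11. Over all genes these 3 fits called 170 of 15045, 570 of 14586 and 556 of 14573 higher.

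Cxcl13, the B cell attractant of lymphoid follicles, reached 14.7 CPM in sarcoma 948, 10.4 in 1268_1270, 2.07 in 2721 and 1.96 in 1267. A single count was found across all marrow, in mouse 919 (0.0238 CPM). All 4 SMC3+/- sarcomas thus lay above every marrow sample. The log2 difference was 9.66 ± 1.04 (SE, n = 4 against 9, edgeR adjusted p = 0.000355), and 8.58 with mouse as a block (adjusted p = 0.883). The other ligands of lymphoid tissue were nearly silent: Ccl19, which guides T and dendritic cells, peaked at 1.86 CPM in marrow 1267, and Ccl21b and Ccl21c did not pass 0.0757 CPM. Cxcr5, the receptor of CXCL13, was highest in marrow 949 and is given below. The lymphoid stroma list, 8 genes with 5 tested, had 3 genes higher and summed to 39.9 to 450.5 CPM in the sarcomas against 6.01 to 132.8 CPM in marrow, and the B cell list summed to 7.59 to 81.7 CPM in the sarcomas against 13 to 504.9 CPM in marrow. The share higher over all genes tested was 4.49%, and which genes of these lists met the count filter on marrow alone was not checked. The part of the lists in the Cxcl13 difference was not tested.

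Ccl2, Ccl7, Ccl11, Ccl12, Ccl8 and Ccl1 follow each other on chromosome 11 in RefSeq with no other protein-coding gene between them. Of the 4 monocyte-attracting ligands in this run, Ccl8 and Ccl12 rose, and Ccl7 and Ccl2 did not pass the threshold. Ccl8 stood at 48.7 CPM in sarcoma 1268_1270, 27.2 in 2721, 16.7 in 948 and 8.67 in 1267. In marrow its median was 0 CPM and its highest value 3.05 CPM, in mouse 779. The groups did not overlap. The log2 difference was 6.09 ± 1.46 (SE, n = 4 against 9, edgeR adjusted p = 0.0260). It was not past the threshold without sarcoma 1268_1270 (5.45, adjusted p = 0.163), nor with mouse as a block over 13 samples (11.81, adjusted p = 0.0641).

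Ccl12, a mouse ligand of CCR2, was at 12.6 CPM in sarcoma 948, 6.49 in 2721, 1.09 in 1267 and 1.09 in 1268_1270. Only marrow 779 (0.185 CPM) and marrow 3332 (0.0995 CPM) had counts. Sarcomas lay above marrow without overlap, with a log2 difference of 7.25 ± 1.35 (SE, n = 4 against 9, edgeR adjusted p = 0.00636). With mouse as a block the difference was 9.53 (adjusted p = 0.930). Ccl7, another ligand of CCR2, had 14.4 CPM in sarcoma 948, 13.1 in 2721, 8.99 in 1268_1270 and 4.17 in 1267, and in marrow a median of 0 and a maximum of 5.74 CPM in mouse 779. Marrow 779 alone exceeded the lowest sarcoma, and the log2 difference of 3.70 ± 1.64 had an adjusted p of 0.320. limma-voom put Ccl7 past the threshold (6.70, adjusted p = 0.000757).

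Ccl2, the main attractant of inflammatory monocytes, was high in sarcomas 948 (40.9 CPM) and 2721 (37.6) and lower in 1268_1270 (6.04) and 1267 (3.94). Marrow ran from 0 over a median of 0.863 to 24.6 CPM, with mice 779 and 949 (15.6 CPM) highest. The groups overlapped and the log2 difference was 1.84 ± 1.24 (SE, n = 4 against 9, edgeR adjusted p = 0.648). Within mice 1267 and 2721 the sarcoma exceeded the marrow, 3.94 against 0 CPM and 37.6 against 0.585 CPM, and the fit on those 2 mice gave 6.39 (adjusted p = 0.0188).

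Ccl11 (eotaxin), which recruits eosinophils through CCR3, had 0 counts in all 9 marrow samples. It stood at 59.1 CPM in sarcoma 1268_1270, 3.11 in 1267, 2.12 in 2721 and 1.25 in 948. Against a floor of 3 counts over all marrow (0.01445 CPM), the sarcoma mean of 16.4 ± 28.5 CPM (SD, n = 4) was at least 1130-fold higher (edgeR adjusted p = 0.0157). That mean rests on 1268_1270, without which the adjusted p was 0.0686, and mouse as a block gave 0.396. Ccl24, another eosinophil ligand, was also highest in 1268_1270 (11.98 CPM), with 2.40 CPM in 948, 0.691 in 1267 and 0.656 in 2721. Its marrow values ran from 0 to 1.39 CPM and overlapped (log2 difference 3.43 ± 1.56, adjusted p = 0.344). Ccr3 itself stayed at or below 1.68 CPM in every sample.

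The fibroblast list, 8 of 8 tested with 7 higher, summed to 511 to 4333 CPM in the sarcomas and to 0.641 to 34.7 CPM in marrow. The resident macrophage list, 10 of 10 tested with 5 higher, summed to 537 to 976 CPM against 39.6 to 363 CPM. Of all genes tested 4.49% were higher, and which of these markers met the count filter on marrow alone was not checked. Sarcoma 1268_1270, highest for Ccl11, Ccl8 and Ccl24, also had the highest fibroblast and adipocyte sums, and marrow 779, highest in marrow for Ccl8, Ccl7 and Ccl2, had the highest macrophage sum among marrow samples (363.1 CPM). Levels did not always follow these sums: marrow 737 had a macrophage sum of 347.6 CPM with Ccl7 at 0, Ccl8 at 0.160 and Ccl2 at 4.57 CPM, and Ccl12 was highest in sarcoma 948, which had the lowest fibroblast sum of the 4 sarcomas (510.9 CPM). No marker of these lists was at 0 in every sample of either tissue. In bulk samples fewer cells of a type and less RNA per cell cannot be told apart, and the part of these cells in the ligand differences was not tested.

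Cxcl14 and Cxcl16 are ligands of epithelia, stroma and myeloid cells; CXCL16 is a membrane-bound ligand of CXCR6. Cxcl14 stood at 16.6 CPM in sarcoma 1267, 15.9 in 1268_1270, 13.5 in 2721 and 6.74 in 948, and ran from 0 over a median of 0.351 to 2.27 CPM in marrow, with marrow 2721 highest. No marrow sample reached the lowest sarcoma, and the log2 difference was 4.52 ± 1.14 (SE, n = 4 against 9, edgeR adjusted p = 0.0339). The call was lost in 8 of 13 fits that leave out 1 sample, with adjusted p up to 0.145, and with mouse as a block (5.04, adjusted p = 0.973). Cxcl16 differed less than 2-fold over the sarcomas, at 25.4 CPM in 1268_1270, 21.9 in 1267, 21.0 in 948 and 14.8 in 2721, against 0 to 5.93 CPM in marrow. Its groups did not overlap, but the log2 difference of 3.04 ± 0.94 missed the threshold in edgeR (adjusted p = 0.0925) and passed it in DESeq2 (3.07, adjusted p = 0.0260) and limma-voom (4.16, adjusted p = 0.00386). Ccl25, the thymus and gut ligand of CCR9, stood at 3.53 ± 1.22 CPM in marrow (SD, n = 9) and 3.47 ± 0.760 CPM in the sarcomas (SD, n = 4).

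**Figure D3:**
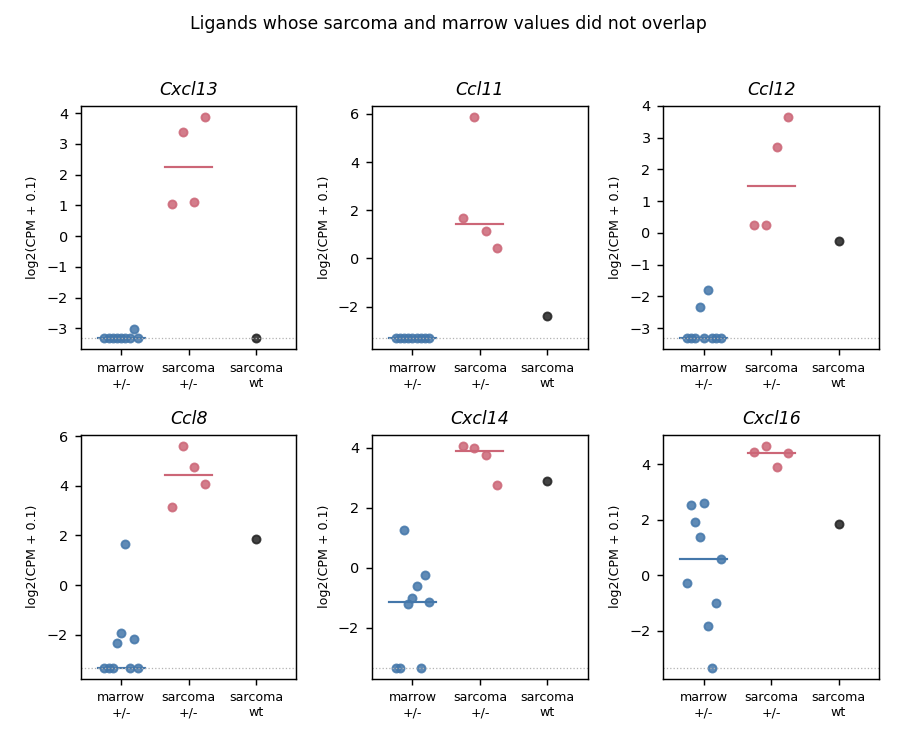
Log2(CPM + 0.1) by sample for the 6 ligands whose SMC3+/- sarcoma and marrow values did not overlap; each point is a sample, the bar is the group's median, and the dotted line marks 0 CPM. With the tumours of a mouse added up, the SMC3 wild type tumour lies below all 4 SMC3+/- sarcoma samples for every ligand shown except Cxcl14.

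The second run of chromosome 11 ligands, Ccl5, Ccl9, Ccl6, Ccl3 and Ccl4, holds ligands of CCR1 and related receptors, of which edgeR called 0 of 5, 1 (Ccl5) had an unadjusted p under 0.05 and DESeq2 called Ccl5 lower. Ccl6 ran from 140 over a median of 455 to 1984 CPM in marrow, and stood at 1847 CPM in sarcoma 948, 1356 in 2721, 196 in 1267 and 134 in 1268_1270. Ccl9 ran from 106 over 273 to 2614 CPM in marrow and stood at 611 CPM in sarcoma 948, 165 in 2721, 159 in 1267 and 71.5 in 1268_1270. Both spread more than 10-fold within marrow, and the tissues overlapped. Per kilobase of the longest annotated transcript, Ccl6 led the ligands in both tissues, at 522 ± 432 CPM in marrow (SD, n = 9) and 614 ± 593 CPM in sarcoma (SD, n = 4). Ccl9 came next at 274 ± 336 and 83.7 ± 80.9 CPM per kilobase, within the spread of Ccl6.

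Ccl3 and Ccl4, inflammatory ligands of macrophages and lymphocytes, were highest in marrow 779, at 92.1 and 70.0 CPM. Ccl3 otherwise lay between 2.34 and 50.1 CPM in marrow, and in the sarcomas at 53.0 CPM in 948, 13.6 in 2721, 9.96 in 1267 and 0.726 in 1268_1270. Ccl4 had a marrow median of 3.31 CPM and sarcoma values of 10.3, 5.12, 3.14 and 0.363 CPM in the same order. Both overlapped between tissues, with log2 differences of -0.72 ± 0.95 and -1.44 ± 1.31. Ccl5, a ligand made by T cells, NK cells and platelets, was nearly constant over the sarcomas at 3.29 ± 0.295 CPM (SD, n = 4), while marrow ran from 1.23 over 11.9 to 33.2 CPM with mouse 949 highest. Its log2 difference was -2.10 ± 0.76 (edgeR adjusted p = 0.175) and passed in DESeq2 (-2.09, adjusted p = 0.0435). Scaled to the leukocyte list the Ccl5 difference turned to 0.26, under which the median over all genes tested was 2.01. The T and NK cell list, 9 of 10 genes present and 8 tested with 0 higher and 0 lower by edgeR, 1 at an unadjusted p under 0.05 and 0 by DESeq2, summed to 7.66 to 85.02 CPM in marrow and 8.86 to 41.6 CPM in the sarcomas; its part was not tested.

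Among the ELR ligands, Cxcl2 (MIP-2) was the one with sizeable levels. In marrow it ran from 0.481 over 7.45 to 70.6 CPM, with mice 949, 779 (59.8) and 2721 (48.7) highest. Sarcoma 948 had 78.7 CPM, and the other sarcomas 2.70 (2721), 0.999 (1268_1270) and 0.518 CPM (1267). In both mice with both tissues the sarcoma was below the marrow, 0.518 against 4.97 CPM in 1267 and 2.70 against 48.7 CPM in 2721. Over the 13 samples the log2 difference was -0.30 ± 1.37 (edgeR adjusted p = 0.990), and with mouse as a block it was -4.04 (adjusted p = 0.0346). Cxcr2, the receptor of these ligands, lies outside the member rule.

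The interferon-inducible ligands, which attract activated T cells through CXCR3, did not pass the threshold: 0 of 2 tested by edgeR, 0 at an unadjusted p under 0.05 and 0 by DESeq2 or limma-voom. Cxcl9 was highest in marrow 782 (34.6 CPM) and otherwise at most 9.72 CPM in marrow, and in the sarcomas at 23.6 CPM in 1268_1270, 14.97 in 1267, 2.75 in 2721 and 1.64 in 948. Cxcl10 was at 6.26, 4.12, 2.40 and 4.80 CPM in the same 4 sarcomas and between 0.381 and 3.98 CPM in marrow. Both overlapped.

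By edgeR 0 of 11 receptors tested were called, Ccr4 higher and Ccr2 lower at an unadjusted p under 0.05, and DESeq2 and limma-voom called 0. Ccr2, which marks inflammatory monocytes, ran from 75.3 over 262 to 1248 CPM in marrow, with mice 737 and 779 (1184) highest. Both samples, which were also the highest for Ccl9, and of which 779 was the highest marrow for Ccl3, Ccl4 and Ccr1, are among the 4 libraries short of long transcripts; the part of that shortage in these levels was not tested. Sarcoma 948 had 231 CPM, 1268_1270 57.3, 2721 46.8 and 1267 16.8, so 3 of 4 lay below every marrow sample. The log2 difference was -2.45 ± 0.95 (SE, n = 4 against 9, edgeR adjusted p = 0.219), while the fit on mice 1267 and 2721 alone gave -2.51 (adjusted p = 0.0175). limma-voom with mouse as a random effect also called Ccr2 lower (-2.40, adjusted p = 0.0381).

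Ccr1, a receptor of CCL3, CCL6 and CCL9, ran from 94.5 over 213 to 705 CPM in marrow and stood at 392 CPM in sarcoma 948, 192 in 2721, 33.9 in 1267 and 16.3 in 1268_1270. The 2 low sarcomas lay below all marrow and the others within it (log2 difference -0.88 ± 0.74, adjusted p = 0.758). Cxcr1, a neutrophil receptor, reached 11.9 CPM in marrow 779 and marrow 2721, was at 0 in 3 marrow samples, and stood at 1.51, 1.46, 1.32 and 0.0454 CPM in sarcomas 948, 2721, 1267 and 1268_1270. Per kilobase of longest transcript, Ccr1 (93.1 ± 67.4 CPM, SD, n = 9) and Ccr2 (78.2 ± 80.0) led the member receptors in marrow and did not differ beyond their spread.

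**Figure D4:**
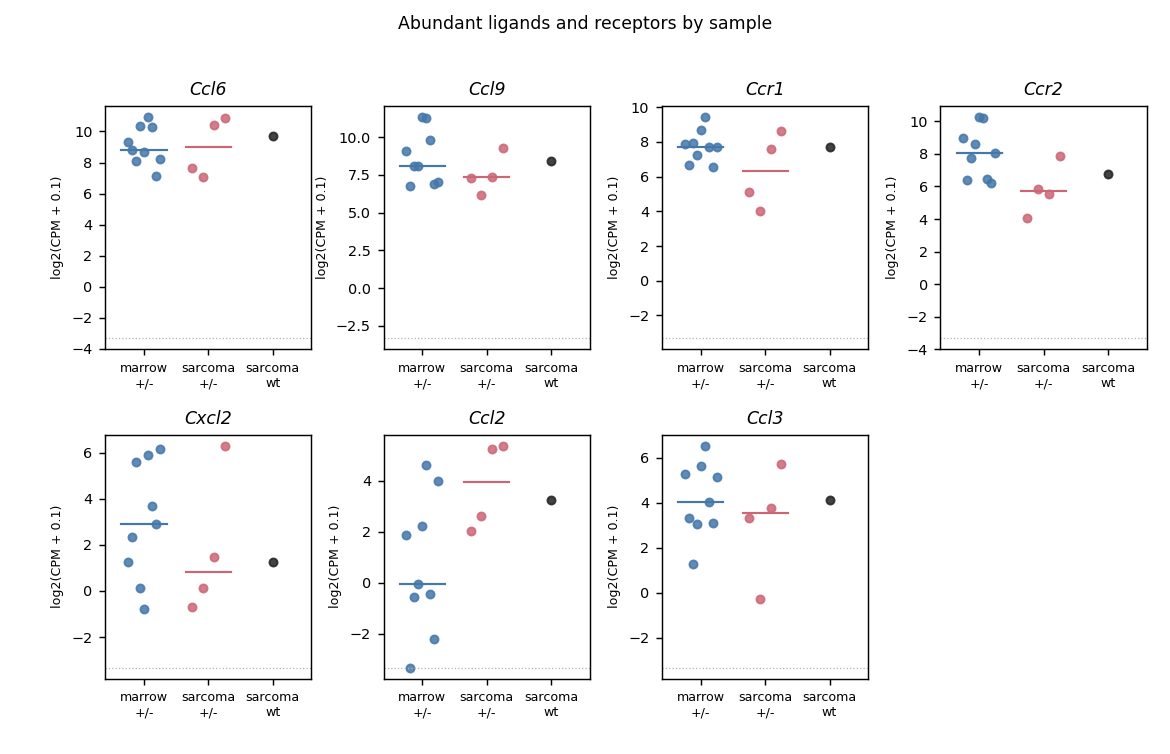
Log2(CPM + 0.1) by sample for 5 ligands and 2 receptors among those of highest mean CPM; points are samples, bars group medians, and the dotted line marks 0 CPM. Ccr2 in 3 of 4 SMC3+/- sarcomas lies below all marrow samples, Ccl2 overlaps between tissues, and Cxcl2 is high in 1 sarcoma only.

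The lymphocyte receptors were low except in single samples. Marrow 949 held the highest value of Ccr7 (19.1 CPM), Ccr9 (18.1 CPM) and Cxcr5 (25.5 CPM), receptors of naive T cells and dendritic cells, gut-homing lymphocytes and plasmacytoid dendritic cells, and follicular B cells. In the other 8 marrow samples they did not pass 2.33, 4.49 and 1.31 CPM, and in the SMC3+/- sarcomas 2.72, 2.00 and 5.13 CPM. Marrow 949 also had the highest B cell sum (504.9 CPM, the next marrow 134 CPM) and T and NK cell sum (85.02 CPM); their part was not tested. Cxcr3 and Cxcr6, receptors of effector T cells, peaked in marrow 737 at 11.3 and 10.1 CPM, and in the sarcomas reached 1.35 CPM in 948 and 5.17 CPM in 1268_1270. Ccr4, a receptor of T helper and regulatory T cells, was at 12.7 CPM in sarcoma 948, 1.24 in 1267, 0.363 in 1268_1270 and 0 in 2721, against at most 1.13 CPM in marrow (log2 difference 3.72 ± 1.68, adjusted p = 0.337).

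Tumours of the same mouse differed in their ligands, most in mouse 948. CPM scaled over the 16 libraries were compared for members with at least 10 counts in either tumour, with no test, since each tumour is 1 library. In mouse 948, 16 of 35 members differed by more than 4-fold (7 higher in tumour 2 and 9 in tumour 1), and in mouse 2721 3 of 28 did. How many of all genes differed as much between these libraries was not counted, so these shares are not shown to be particular to chemokines. Tumour 2 of mouse 948 held Cxcl2 at 187 CPM, Ccl3 at 116, Ccl2 at 76.8, Cxcl3 at 25.5, Ccl4 at 21.7 and Cxcl1 at 5.88 CPM. The same genes in tumour 1 were at 0.352, 7.75, 15.6, 0, 2.17 and 0.235 CPM. Cxcl1, Cxcl2 and Cxcl3, whose upstream windows are printed above, were thus high together in 1 of the 6 SMC3+/- tumours; Cxcl1 and Cxcl3 fall outside the rule for named genes and were singled out after their values were seen.

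Tumour 1 of mouse 948 held the other set. Ccl8 was at 28.4 CPM against 1.88 in tumour 2, Cxcl13 at 25.1 against 1.49, Cxcl14 at 11.0 against 1.41, Ccl24 at 4.23 against 0.0784 and Ccl11 at 2.23 against 0 CPM. The abundant Ccl6 (1590 and 2284 CPM), Ccl9 (696 and 528) and Ccr1 (391 and 412) differed less than 1.5-fold. Tumour 1 is also the library of this pair that was short of long transcripts. The part of that shortage in these differences was not tested. In mouse 2721 the pair differed for Cxcl13 (3.54 and 0 CPM), Ccr7 (1.77 and 0.279) and Cxcr3 (0.0431 and 0.883), while Ccl8 (28.9 and 19.1), Ccl2 (31.1 and 35.8) and Ccl12 (4.70 and 6.88) lay closer together. In both mice 1 tumour thus held most of the Cxcl13 counts.

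**Figure D5:**
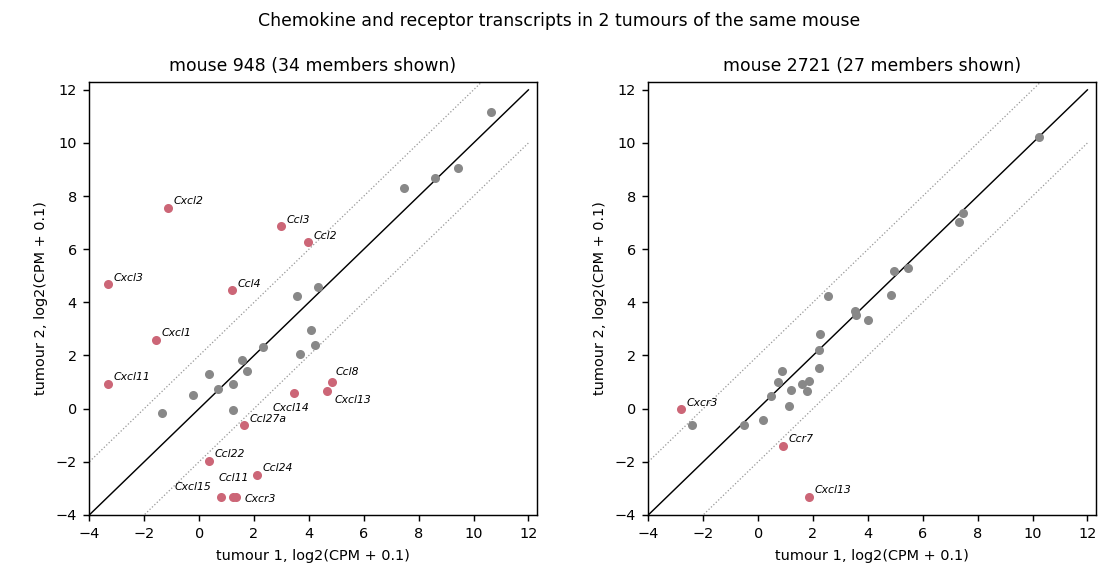
Level in tumour 2 against tumour 1 of mouse 948 (34 of 35 members) and mouse 2721 (27 of 28 members), as log2(CPM + 0.1), with the line of equality, dotted lines at 4-fold and members beyond them named. Cxcl2, Cxcl3 and Ccl3 lie above and Cxcl13, Ccl8 and Ccl11 below the lines in mouse 948.

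The SMC3 wild type tumour of mouse 841 is a single library, assumed in the fit to vary like the 4 SMC3+/- sarcomas. Of 17762 genes tested, 0 were called (0%), and so were 0 of 39 members, with 2 members at an unadjusted p under 0.05; DESeq2 called 67 genes and 0 members. Set against the range of the 4 SMC3+/- sarcoma samples, in which the tumours of a mouse are added up, 4 of the 39 members lay below it by more than 2 log2 units and 0 above it. Among all genes tested 307 (1.73%) lay below and 94 (0.529%) above by as much. Cxcl13 (-4.65) had 0 counts, which allows up to 0.274 CPM at 3 counts, against at least 1.96 CPM in those samples. Ccl11 (-2.95) was at 0.0913 CPM, Ccl5 (-2.80) at 0.365 CPM and Cxcl16 (-2.06) at 3.47 CPM. Single SMC3+/- tumours reached 0 as well, tumour 2 of mouse 2721 for Cxcl13 and tumour 2 of mouse 948 for Ccl11, so for these ligands the SMC3 wild type tumour was not below every SMC3+/- tumour. For Ccl5 (0.351 CPM when scaled over the 16 libraries, against 1.95 CPM or more) and Cxcl16 (3.34 against 9.95 CPM or more) it lay below all 6. Ccl17, a ligand of CCR4 made by dendritic cells, stood highest of all samples at 30.1 CPM, and Ccr4 likewise at 19.0 CPM; the next were 8.74 and 12.7 CPM, both in sarcoma 948. Ccl17 was named after its values were seen. Genotype and single tumour cannot be told apart here.

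Beyond the members, the chemokine system list of 16 genes, which holds scavenging receptors, platelet chemokines and the 3 genes left out by the rule, had 3 higher and 0 lower in sarcoma by edgeR. Ackr3, a scavenging receptor of CXCL12, ran from 4.38 to 45.3 CPM in the sarcomas against at most 0.424 CPM in marrow (log2 difference 7.17 ± 1.21, adjusted p = 0.00335); it entered the test only through the sarcomas. Rarres2, which encodes chemerin, rose by 4.08 ± 0.75 (edgeR adjusted p = 0.00574). Its sarcoma values of 10.7 to 412.6 CPM overlapped its marrow values of 3.21 to 15.1 CPM. Pf4, the platelet factor, rose by 3.40 ± 0.91 (edgeR adjusted p = 0.0484). Of the cytokines that induce chemokines, 11 of 18 could be tested and 1 rose, the alarmin Il33, from at most 0.605 CPM in marrow to 5.72 to 21.4 CPM in sarcoma (6.15 ± 1.34, adjusted p = 0.0156), and it too entered only through the sarcomas. Of 14 genes of chemokine cleavage and presentation, 3 matrix metalloproteinases rose: Mmp2 (5.46 ± 0.91, adjusted p = 0.00302), Mmp12 (5.87 ± 1.13, adjusted p = 0.00761) and Mmp14 (5.19 ± 0.88, adjusted p = 0.00335). In the same fit 4.49% of all genes tested were higher and 0.0543% lower. Median log2 differences of these 3 lists were 1.85, -0.52 and 0.61, beside 0.07 over all genes tested. Without sarcoma 1268_1270, 170 of 15045 genes tested were higher, and the genes of these lists were not followed in that fit.

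Genes through which chemokines are induced or signal did not pass the edgeR threshold. Among 19 receptors and transcription factors of the inducers, such as Nfkb1 and Rela, 0 were called, 2 had an unadjusted p under 0.05 and DESeq2 called 1, with a median log2 difference of -0.20. Among 18 genes of receptor signalling, such as Gnai2 and Dock2, 0 were called, 2 had an unadjusted p under 0.05 and DESeq2 and limma-voom called 1 each, with a median of -0.64.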

How the data were processed

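The authors deposited 1 table of raw gene counts for 16 polyA RNA libraries; per the submitters' processing notes STAR, DESeq and DESeq2 were used with mm9, and the counter and annotation are not named there. Counts were used as deposited. Tumour libraries of 1 mouse were added up to give 14 samples, and closest libraries differed by more than sampling noise (lowest mean chi-square per gene 17.8). Replicates are separate mice, apart from the name 1268_1270. Levels are CPM after TMM scaling over the 14 samples. Tests were edgeR 4.0.16 quasi-likelihood fits (robust, filterByExpr, Benjamini-Hochberg over all genes tested, threshold 0.05; limma 3.58.1 and DESeq2 1.42.0 as alternatives, R 4.3.3); SE is the log2 difference divided by the square root of F. The tissue fit used 4 sarcoma and 9 marrow SMC3+/- mice, the genotype fit 1 against 4 sarcomas; the same code was tested on simulated data. Mice 1267 and 2721 gave both tissues, and the deviations of their 2 samples correlated at 0.291 and 0.207. Samples of different mice were not compared in this way, so these values do not show pairing by mouse. Members outside the count filter have levels only, and 1 receptor, included in all counts, is not reported here. Transcript lengths came from GENCODE M21, and promoters and gene order from RefSeq GRCm38.p6; neither is the authors' build, so no coordinate was joined to the counts.

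Named were all called members, members without overlap between tissues, the 8 ligands and 8 receptors of highest mean CPM in each tissue, members more than 2 log2 units beyond the sarcoma range in the SMC3 wild type tumour, Cxcl13 and Ccl12, and up to 4 called genes per pathway list. Cxcl1, Cxcl3, Cxcl10, Ccl7, Ccl17, Ccl19, Ccl24, Ccl25 and Ccr3 were named after their values were seen. Members, lists, alternatives and rules were chosen with earlier results of these data known. It was not checked which marker genes met the count filter on marrow alone. The marker counts that follow stand beside 4.49% of all genes tested higher and 0.0543% lower by edgeR. Marker lists not described with the results, in sarcoma against marrow by edgeR: blood endothelium 4 of 7 tested higher, lymphatic endothelium 1 of 5, adipocyte 5 of 5 (0 by DESeq2), skeletal muscle 4 of 6, skin and epithelium 1 of 4, and 0 of 6 leukocyte, 0 of 10 myeloid, 0 of 8 dendritic and 0 of 7 B cell markers, with 0 lower in any; at an unadjusted p under 0.05 the last 4 lists had 1, 0, 1 and 0, and DESeq2 called 0, 0, 1 and 0.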

Additional observations from a re-analysis of the deposited data

Results flagged for a closer look

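Groups of 4 or 9 samples, 47 over 24 named members, were checked on log2 CPM with a prior count of 2. In 5 of them a sample was separated from its nearest neighbour by more of the group's range than Dixon's 95% value. That value is 0.829 for 4 samples and 0.493 for 9. Chance gives about 1 in 20 groups, a rate that does not hold where many samples tie at 0. Levels are given below in CPM. Ccl8 was at 3.05 CPM in marrow 779, with the next marrow at 0.160 CPM. Cxcl13 had 0.0238 CPM in marrow 919, a single count, where the other 8 marrow samples had 0. Cxcr1 was at 0.0454 CPM in sarcoma 1268_1270 against 1.32 CPM in the next sarcoma. Cxcr3 had 0 CPM in marrow 1267 against 1.13 CPM in the next marrow. Cxcr5 was at 25.5 CPM in marrow 949, with the next at 1.31 CPM. What sets these samples apart was not tested.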

How the results depend on the processing

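The 5 members called higher kept their sign in all 133 refits in which they could be fitted. That is no support for them: all 5 met the count filter because of the sarcomas, where they were high. Ccl11 had 0 marrow counts and Cxcl13 had 1, so their sign could hardly change. The other 26 members changed sign in 73 of 716 refits, 19 of these members in at least 1. Against 5 members higher and 0 lower, DESeq2 gave 6 and 1 (it gave no p for Ccl11) and scaling to the leukocyte list 11 and 0. The replicate block by mouse gave 0 and 1 over 13 samples and 2 and 2 in mice 1267 and 2721 alone. With mouse as a random effect limma-voom gave 9 and 1. Over all genes tested, higher and lower calls were 662 and 8 of 14730 in the reported fit and 774 and 101 of 19679 by DESeq2. Leukocyte scaling gave 7659 and 10 of 14730. The block gave 107 and 23 of 14730, and 81 and 33 of 14397 in those 2 mice alone. The random effect gave 1323 and 63 of 14730. Each tumour library as a sample gave 4 higher (Ccl12, Ccl8, Cxcl14, Cxcl16), with 574 of 13962 genes higher. Adding the SMC3 wild type tumour gave 3 (Ccl12, Ccl8, Cxcl14), with 556 of 14300 genes higher. Cxcl13 and Ccl11 did not meet the count filter in either fit and were not tested. Leaving out the 4 libraries short of long transcripts gave 3 higher, with 300 of 14711 genes higher. It gave 2 when sarcoma 1268_1270 was left out too, with 62 of 15107 genes higher. Leaving out each sample in turn gave 2 to 5 higher and 0 lower, where 170 to 762 of all genes tested were higher. Over these leave-one-out fits Cxcl13 ran from 9.12 to 10.46 and Ccl12 from 6.40 to 8.04, and neither lost its call; Ccl11 lost it in 1 fit, Ccl8 in 3 and Cxcl14 in 8. Ccl5 turned to 0.26 under leukocyte scaling and Cxcl3 to -1.60 under the block over 13 samples. In the SMC3 wild type comparison 0 members were called in all 9 fits, by edgeR or DESeq2. The causes of these shifts were not tested. Intervals of depth bear on low members: 3 counts are worth 0.0714 to 0.278 CPM per sample.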
